A study of Homo sapiens with 8 samples.

Results

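Glycolysis splits glucose into pyruvate and lactate, and cells short of oxygen switch on many of its genes through the hypoxia-inducible factors. The genes described here are 44 members of these systems, chosen by gene symbol: 27 genes of glucose uptake, glycolysis and lactate or pyruvate handling, and 17 genes of the hypoxia-inducible factor (HIF) system and its targets. They were found among 59050 gene symbols counted by RNA sequencing in 8 xenografts, tumours that H2122 cells, a long-established line of human lung cancer, formed in an animal host. Of the tumours, 4 grew from parental cells labelled wild type and 4 from cells in which SMARCA4 was knocked out (it encodes a motor subunit of SWI/SNF, which moves nucleosomes along DNA), and all 8 had received vehicle. Whether the knockout cells were 1 clone or a pool, and the host's age, were not given in the sources used here. The labels do not say that the tumours came from separate animals, so p-values measure only the spread between these 8 samples, and all statements are about transcript counts, not protein or metabolite levels.

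In the textbook scheme, glucose transporters and hexokinases bring glucose in and trap it, phosphofructokinase commits it to glycolysis, and lactate dehydrogenase and the monocarboxylate transporters turn pyruvate into lactate and export it. HIF is a pair of an oxygen-sensitive alpha subunit (HIF-1 alpha from HIF1A or HIF-2 alpha from EPAS1) and a stable partner. With oxygen present, the EGLN prolyl hydroxylases mark the alpha subunit for destruction; without it, the pair binds DNA at a core of ACGTG or GCGTG and raises genes of glycolysis, acid handling and vessel growth. Because this control acts on the protein, the transcript of HIF1A does not report how much HIF-1 alpha a tumour holds.

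The libraries held 19785922 to 23191698 gene counts each. SMARCA4, the targeted gene, was at 198 to 235 CPM (a gene's reads relative to its library's size after TMM scaling) in the parental tumours and at 22.3 to 31.1 CPM in the knockout tumours (log2 fold change -3.02, SE 0.117, edgeR adjusted p = 1.45e-07), and no library went against its label. Markers of epithelial cells were abundant in all tumours, with a summed level of 5756 to 6929 CPM over 6 markers in the parental and 4634 to 6237 CPM in the knockout group. Of these 6, KRT19 and KRT7 fell (log2 fold change -1.01 and -0.71, edgeR adjusted p = 8.49e-05 and 0.000333) and none rose. Fibroblast markers summed to 179 to 607 CPM in the parental and 343 to 602 CPM in the knockout group over 6 genes. Of 4 tested, LUM alone passed, at 0.374 and 12.4 CPM (log2 fold change 5.00, edgeR adjusted p = 1.98e-06). The untested DCN had 9 counts over the parental and 24 over the knockout tumours, and PDGFRA had 6 and 1. Endothelial markers summed to 7.35 to 18 CPM and 8.68 to 15.3 CPM over 6 genes. Only 2 were tested, of which VWF passed, at 1.97 and 0.378 CPM (log2 fold change -2.37, edgeR adjusted p = 0.00041). The untested CDH5 had 36 counts over the parental and 0 over the knockout tumours, KDR 38 and 9, TEK 28 and 24, and CLDN5 2 and 4. These marker genes were named after their values were seen. Skeletal muscle markers stood apart in 3 tumours: their 8 genes summed to 27.4 CPM in parental 2, 6.93 CPM in parental 4 and 15.2 CPM in knockout 4, and to at most 0.654 CPM in the other 5. Leukocyte markers summed to 7.36 to 71.2 CPM in the parental and 12.8 to 30.4 CPM in the knockout group over 8 genes, with none of 7 tested members passing the test. The sum of the adipocyte markers moved with the genotype, at 2.23 to 4.25 CPM in the parental and 9.26 to 16.7 CPM in the knockout group over 5 genes. Of these, CFD alone was tested and rose (log2 fold change 2.05, SE 0.263, edgeR adjusted p = 0.00018), and it carried most of the sum. PLIN1 had 28 counts over the parental and 56 over the knockout tumours, FABP4 went the other way with 6 and 0, LEP had 1 and 0, and ADIPOQ, a defining marker, was at 0 in all 8 libraries. Non-tumour cells of a xenograft come from the host, and whether host reads were separated was not given in the sources used here. Counts of these markers may come from the H2122 cells themselves or from host reads that resemble human transcripts, which cannot be told apart. The part of these other cell types in the results was not tested, and in bulk tumours fewer cells of a type and less RNA per cell cannot be told apart.

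The gene set as a whole did not shift in 1 direction. Of 43 tested members, 15 (34.9%) passed an adjusted p of 0.05 in edgeR's quasi-likelihood test, against 27.0% of all 16219 genes tested, a share near the background. Among them 7 members rose (13.0% of all genes rose) and 8 fell (14.1% of all genes fell). For 14 members the 4 knockout values lay wholly above or below the 4 parental values, as they did for 29.3% of all genes. Among the glycolysis members 4 of 26 rose and 6 fell, with a median log2 fold change of -0.10. In the HIF and hypoxia members 3 of 17 rose and 2 fell, with a median of 0.02, beside 0.00 over all genes. SLC2A4, the insulin-responsive glucose transporter, was too low to test, with 25 counts over the 4 parental and 33 over the 4 knockout tumours. Without parental 1, or without knockout 2, the number of members that rose was 4 in place of 7, as ALDOC, EPAS1 and ERO1A no longer passed.

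**Figure D1:**
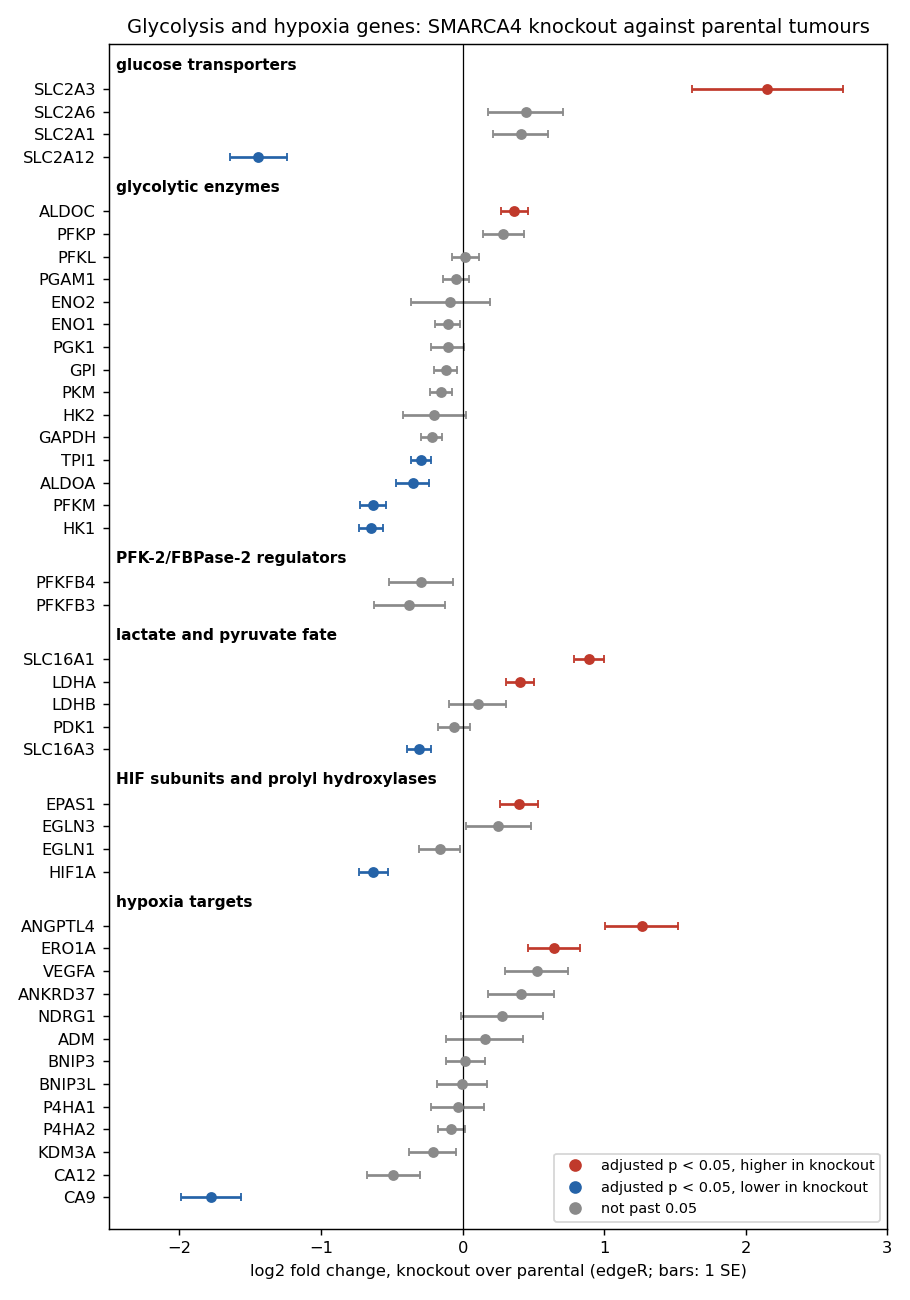
Log2 fold changes (x axis, knockout over parental, bars are the standard error of edgeR's fit) of the 43 tested members, grouped by role, coloured red (higher) or blue (lower) where the adjusted p was under 0.05. Members of every group with more than 2 genes lie on both sides of 0, from -1.78 for CA9 to 2.15 for SLC2A3.

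Of the 44 members, 38 had an entry in the RefSeq promoter table (GRCh38.p14), which gives the bases before each gene's annotated start. The HIF core was searched in the 250 bases before the start, on both strands, as ACGTG (or its complement CACGT). It was present in 15 of the 38 members (39.5%) and in 18.5% of all 35116 promoters in the table. The share was 33.3% for 24 glycolysis members and 50.0% for 14 HIF and hypoxia members. GCGTG, the other form of the core, was also in 15 of the 38 members (39.5%), HIF1A and EPAS1 among them, near the 32.2% of all promoters. At least 1 of the forms was in 25 of 38 members (65.8%) and in 43.2% of all promoters. Among members that rose, 4 of the 5 with an entry held ACGTG, and among those that fell 2 of 8 did, so the letters were found on both sides; with GCGTG counted too, these were 5 of 5 and 3 of 8. The matches in these 6 genes are shown as 30 bases of the gene's own strand, 5′ to 3′, since these are the members that changed; capitals mark ACGTG or CACGT, and CACGTG counts on both strands. A match is a description of the letters and not a measured binding site.
CA9 (fell): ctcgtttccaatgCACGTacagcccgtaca
ALDOA (fell): cccttcccctccaCACGTcaacgattctat
LDHA, farther match (rose): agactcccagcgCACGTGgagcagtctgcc
LDHA, nearer match (rose): gactcaCACGTGggttcccgCACGTccgcc
ALDOC, farther match (rose): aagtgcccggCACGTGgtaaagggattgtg
ALDOC, nearer match (rose): cccccggaggagtCACGTagctctgcgaca
ERO1A (rose): gcgggcgccgcggCACGTccacaggctggg
ANGPTL4 (rose): gggaaagaagagtCACGTctcccacggttc
The CA9 window is chr9:35673897-35673926 on the plus strand and ends 2 bases before the start. ALDOA's is chr16:30064088-30064117, plus strand. The LDHA windows are chr11:18394366-18394395 and chr11:18394470-18394499 on the plus strand, and hold 5 matches between them, the most of the 38 members. For ALDOC they are chr17:28577116-28577145 and chr17:28576907-28576936 on the minus strand. ERO1A's is chr14:52695656-52695685 on the minus strand, and ANGPTL4's is chr19:8363908-8363937 on the plus strand. Starts are those RefSeq annotates; in GENCODE 29 other transcripts begin earlier, so that both ALDOC windows, the nearer LDHA window and those of CA9 and ERO1A lie wholly in exons of the gene, as do 8 bases of the farther LDHA window. The ALDOA and ANGPTL4 windows lie in no exon of their gene, and the start used in these tumours was not measured.

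The glucose transporters went in opposite directions at low levels while SLC2A1, the most abundant member among them, did not pass the test. SLC2A3 (GLUT3, a high-affinity transporter, chr12:7919230-7936275) was at 2.02, 14.2, 3.53 and 2.17 CPM in parental tumours 1 to 4 and at 31.8, 18.8, 30.1 and 16.4 CPM in knockout tumours 1 to 4. All knockout values were above all parental values, and parental 2 stood closest to the knockout range. SLC2A3 rose 4.45-fold (log2 fold change 2.15, SE 0.535, edgeR adjusted p = 0.0117), and by 3.23 on the log2 scale without parental 2. Its near-identical paralogue SLC2A14, whose reads could be confused with those of SLC2A3, had 46 counts over the parental and 25 over the knockout tumours. SLC2A12 (GLUT12, chr6:133988697-134052636) was at 3.16, 3.71, 4.73 and 4.72 CPM in the parental and 1.45, 1.66, 1.54 and 1.35 CPM in the knockout tumours. The groups did not overlap, and SLC2A12 was 2.72-fold lower in knockout tumours (log2 fold change -1.44, SE 0.200, edgeR adjusted p = 0.000312). Of its exonic bases, 38.9% overlap TBPL1 on the opposite strand, a gene at 11.1 CPM in the parental and 8.61 CPM in the knockout group.

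SLC2A1 (GLUT1, the main transporter of most cancer cells) was the most abundant of the 5 by far, at 155 CPM per kilobase of merged exons in parental and 206 in knockout tumours; SLC2A3 was at 0.890 and 3.94 on the same scale. Its levels were 693, 1019, 569 and 646 CPM in the parental and 1267, 819.9, 1029 and 777 CPM in the knockout tumours. Parental 2 lay inside the knockout range, and the difference did not pass (log2 fold change 0.41, SE 0.195, edgeR adjusted p = 0.147). Without parental 2 it did, at 0.61 with an adjusted p of 0.0166. SLC2A6, a lysosomal transporter, was at 2.51 ± 0.754 and 3.43 ± 1.09 CPM (SD, n = 4 each) and did not pass (edgeR adjusted p = 0.251).

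Among the 15 enzymes of the chain from hexokinase to pyruvate kinase, 4 fell, 1 rose and 10 did not pass (33.3% called, against 27.0% of all genes). Of the 15 fitted changes 12 (80%) were below 0, as were 49.5% over all genes. The 15 genes share the same libraries, so their signs are not independent. With the tumours that held muscle markers left out, HK2 (0.229), PGK1 (0.067), PGAM1 (0.097) and ENO2 (0.137) were above 0 and PFKL (-0.055) below. HK1 (chr10:69269984-69401884), the hexokinase of most tissues, was at 257, 280.3, 242 and 271 CPM in the parental and at 153, 166, 179.7 and 173 CPM in the knockout tumours. The ranges were far apart relative to their spread, and HK1 was 1.56-fold lower (log2 fold change -0.64, SE 0.0849, edgeR adjusted p = 0.000216). PFKM (chr12:48105139-48146404), the muscle-type phosphofructokinase, was at 29.6, 28.7, 29.6 and 33.5 CPM in the parental and at 19.8, 20.3, 19.9 and 18.3 CPM in the knockout tumours. It was 1.55-fold lower with no overlap (log2 fold change -0.63, SE 0.0896, edgeR adjusted p = 0.000355). TPI1 (chr12:6867119-6870948), triosephosphate isomerase, was at 648, 675, 643 and 694 CPM in the parental and at 529, 551, 545 and 545 CPM in the knockout tumours. The fall was small beside that of HK1 but the groups were again separate (log2 fold change -0.29, SE 0.0729, edgeR adjusted p = 0.0116).

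The aldolase pair moved in opposite directions. ALDOA (chr16:30064164-30070457), the aldolase of muscle and most cells, was at 63.7, 56.5, 60.1 and 49.3 CPM in the parental and at 52.1, 47.2, 42.9 and 37.6 CPM in the knockout tumours. Knockout 1 lay above parental 4, so the groups overlapped, and ALDOA fell by 0.35 on the log2 scale (SE 0.116, edgeR adjusted p = 0.0444). Of the exonic bases of ALDOA, 42.3% are shared with AC093512.2 on the same strand, and reads from shared exons may have been left out of both. ALDOC (chr17:28573115-28577264), the brain-type aldolase, was at 25.7, 29.1, 28.7 and 27.4 CPM in the parental and at 37.0, 39.7, 34.5 and 31.6 CPM in the knockout tumours. All knockout values were higher, and ALDOC rose 1.29-fold (log2 fold change 0.36, SE 0.0950, edgeR adjusted p = 0.0147). The ALDOA call did not hold without parental 1, 2 or 3 or without knockout 2, 3 or 4 (adjusted p = 0.119, 0.0574, 0.0886, 0.0733, 0.113 and 0.104 in that order), nor under upper-quartile scaling (0.0581). ALDOC missed the threshold without parental 1 (adjusted p = 0.0538) and without knockout 2 (0.0509).

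**Figure D2:**
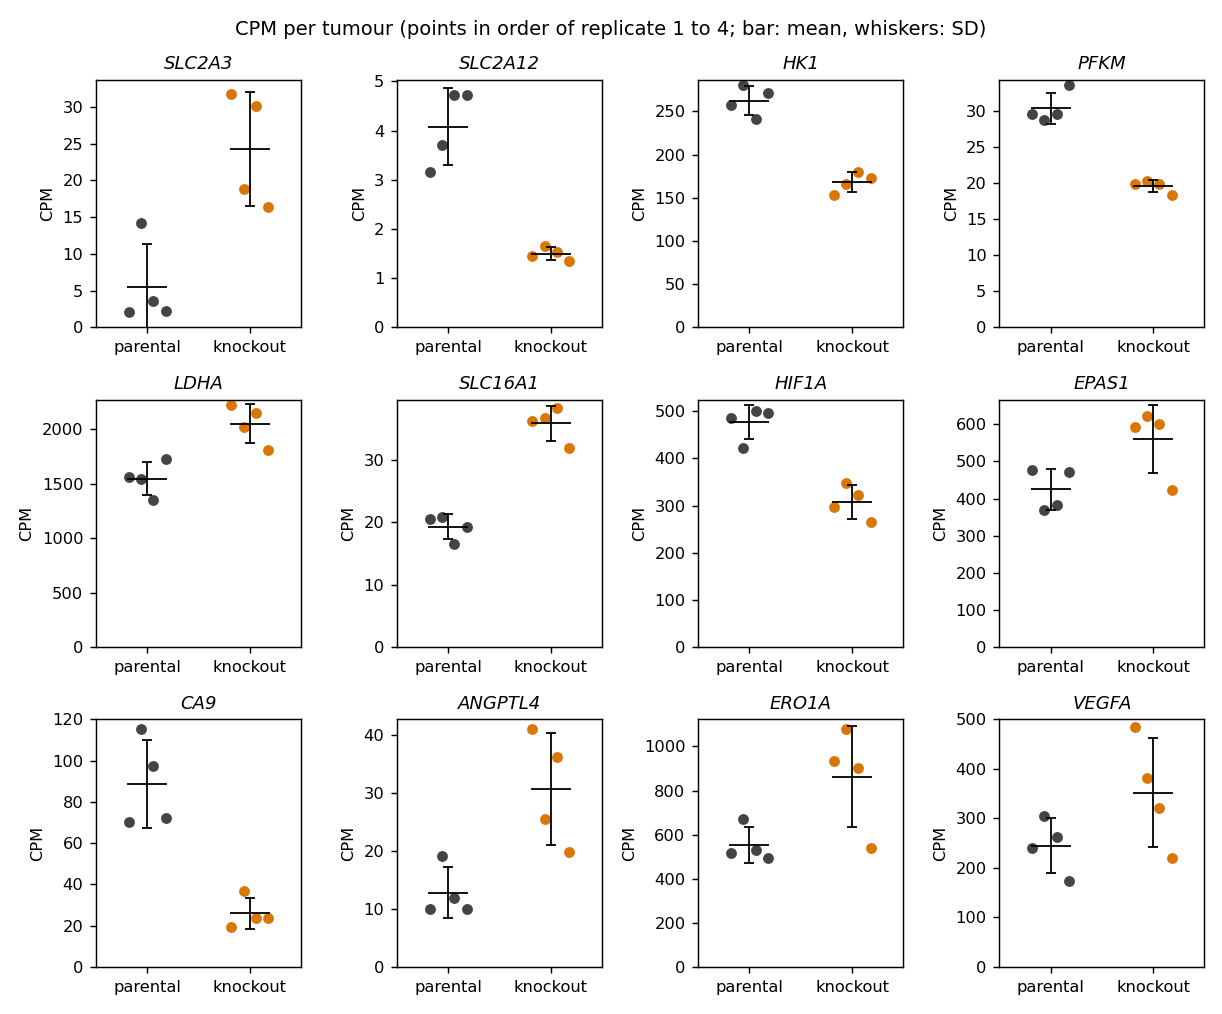
Level in CPM (y axis, linear, a separate scale for each gene) of 12 members in the 4 parental and 4 knockout tumours; points are tumours in order of replicate number, the bar is the group mean and whiskers are the SD. HK1, PFKM, HIF1A and CA9 lie lower in every knockout tumour than in any parental tumour, and SLC2A3, LDHA, SLC16A1 and ANGPTL4 lie higher.

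GAPDH and PKM, the 2 enzymes with the highest levels per kilobase as counted, missed the threshold although their groups did not overlap. ALDOA, which may have lost reads from shared exons, cannot be placed in that ranking. GAPDH, at 2102 CPM per kilobase in parental tumours, was at 6247, 5900, 6663 and 6253 CPM in the parental and 5362, 5430, 5423 and 5316 CPM in the knockout tumours. Every knockout value was lower (log2 fold change -0.22, SE 0.0770, edgeR adjusted p = 0.0559). It passed without parental 2 (adjusted p = 0.0430), by RLE scaling (0.0499), limma-voom (0.0444) and DESeq2 (0.00320), so its side of the threshold depended on the method; GAPDH also has 62 named pseudogenes that can share its reads. PKM, pyruvate kinase, was at 4463 ± 189 CPM in the parental and 4011 ± 104 CPM in the knockout group (SD, n = 4 each; log2 fold change -0.15, edgeR adjusted p = 0.167, DESeq2 0.0383). ENO1, PGK1, PGAM1 and GPI, which act at other steps of the chain, had fitted changes of -0.10, -0.11, -0.05 and -0.12 and did not pass (edgeR adjusted p from 0.324 to 0.738).

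HK2, the hexokinase that many tumours induce, was at 209.5, 368, 197 and 218 CPM in the parental and at 220.2, 280.2, 217 and 147 CPM in the knockout tumours. The high parental 2 and the low knockout 4 spanned the range, and HK2 did not pass (log2 fold change -0.20, SE 0.221, edgeR adjusted p = 0.552). PFKL, the liver-type phosphofructokinase, was at 226 ± 27.2 and 229 ± 9.78 CPM (SD, n = 4 each; log2 fold change 0.02, SE 0.0973, edgeR adjusted p = 0.908). PFKP, the platelet type and the most abundant of the 3 per kilobase at 75.2 CPM, was at 364 ± 69.7 and 444 ± 67.8 CPM (SD, n = 4 each; edgeR adjusted p = 0.175), and passed without parental 2 (0.0329). ENO2 was at 45.8 ± 18.4 and 43.1 ± 12.6 CPM (SD, n = 4 each; edgeR adjusted p = 0.854). PFKFB3 and PFKFB4, which make the phosphofructokinase activator fructose 2,6-bisphosphate, had fitted changes of -0.38 (SE 0.248) and -0.30 (SE 0.226) and did not pass (edgeR adjusted p = 0.297 and 0.368).

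At the lactate end of the pathway the dehydrogenase and the 2 monocarboxylate transporters changed. LDHA (chr11:18394388-18408425), which favours making lactate, was at 1563, 1545, 1349 and 1724 CPM in the parental and at 2216, 2016, 2147 and 1808 CPM in the knockout tumours. Every knockout value was higher, with knockout 4 the nearest to the parental range, and LDHA rose 1.32-fold (log2 fold change 0.41, SE 0.101, edgeR adjusted p = 0.0116). LDHB, the heart-type subunit, was at 17.2, 9.47, 13.1 and 21.3 CPM in the parental and at 15.6, 15.8, 16.6 and 17.7 CPM in the knockout tumours. The knockout values lay within the parental range (log2 fold change 0.11, SE 0.203, edgeR adjusted p = 0.746); 33.4% of the exonic bases of LDHB are shared with AC010197.2 on the same strand.

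SLC16A1 (MCT1, which carries lactate in either direction, chr1:112911847-112957013) was at 20.5, 20.9, 16.4 and 19.3 CPM in the parental and at 36.3, 36.7, 38.3 and 31.9 CPM in the knockout tumours. The groups were well apart, and SLC16A1 rose 1.86-fold (log2 fold change 0.89, SE 0.104, edgeR adjusted p = 9.34e-05), the smallest p of the 43 members. SLC16A3 (MCT4, the lactate exporter of glycolytic cells, chr17:82228397-82261129) was at 802, 726, 739 and 640.4 CPM in the parental and at 603, 588, 599 and 558 CPM in the knockout tumours. All knockout values were lower, and SLC16A3 fell by 0.31 on the log2 scale (SE 0.0873, edgeR adjusted p = 0.0224). That call was lost without parental 1 (adjusted p = 0.0663), knockout 2 (0.0549), knockout 3 (0.0537) or knockout 4 (0.0554). PDK1, which holds pyruvate back from the mitochondria, was at 59.4, 67.2, 70.2 and 73.2 CPM in the parental and at 62.0, 78.0, 63.6 and 55.1 CPM in the knockout tumours. Its groups overlapped and PDK1 did not pass (log2 fold change -0.06, SE 0.113, edgeR adjusted p = 0.732).

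In the HIF system the 2 alpha subunits went opposite ways. HIF1A (chr14:61695513-61748259) was at 486, 423, 499.9 and 496 CPM in the parental and at 296, 348, 322 and 264 CPM in the knockout tumours. The groups did not overlap, and HIF1A was 1.55-fold lower in knockout tumours (log2 fold change -0.63, SE 0.102, edgeR adjusted p = 0.00087). EPAS1 (chr2:46293667-46386703) was at 476, 369.9, 384 and 470.2 CPM in the parental and at 592, 623, 602 and 423 CPM in the knockout tumours. Knockout 4 lay within the parental range while the other 3 were above it, and EPAS1 passed narrowly (log2 fold change 0.40, SE 0.136, edgeR adjusted p = 0.0491). The EPAS1 call was lost by RLE scaling (adjusted p = 0.0534) and limma-voom (0.0542), without parental 1, 2 or 3 (0.0568, 0.0989 and 0.117) and without knockout 1, 2 or 3 (0.115, 0.130 and 0.122). EGLN1 and EGLN3, the prolyl hydroxylases, did not pass; EGLN1 was at 35.0 ± 5.08 and 31.3 ± 5.79 CPM and EGLN3, itself a HIF target, at 483 ± 154 and 576 ± 145 CPM (SD, n = 4 each; edgeR adjusted p = 0.457 and 0.454).

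Of the 13 hypoxia targets, 2 rose, 1 fell and 10 did not pass (23.1% called, below the 27.0% of all genes), and the 1 that fell had the largest fitted change of the 13. CA9 (chr9:35673856-35681159), the cell-surface carbonic anhydrase widely used as a marker of tumour hypoxia, was at 70.4, 115, 97.3 and 72.0 CPM in the parental and at 19.2, 36.8, 23.9 and 23.8 CPM in the knockout tumours. The highest knockout value was well under the lowest parental value, and CA9 was 3.42-fold lower (log2 fold change -1.78, SE 0.212, edgeR adjusted p = 0.000109). Of the exonic bases of CA9, 38.5% overlap ARHGEF39 on the opposite strand, a gene at 16.9 CPM in the parental and 17.3 CPM in the knockout group, and the strand setting of the counting was not given in the sources used here. CA12, its membrane-bound relative, was at 251, 294, 385 and 293 CPM in the parental and 229, 291, 201 and 149.7 CPM in the knockout tumours. Only knockout 2 reached the parental range, and CA12 did not pass (log2 fold change -0.49, SE 0.187, edgeR adjusted p = 0.0753); it passed without knockout 2 (0.0222), by DESeq2 (0.0377) and with no filter on low counts (0.0170).

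ANGPTL4 (chr19:8363289-8374373), a secreted inhibitor of lipoprotein lipase, was at 10.1, 19.2, 11.9 and 9.99 CPM in the parental and at 41.1, 25.6, 36.2 and 19.9 CPM in the knockout tumours. Knockout 4 was just above parental 2 and the groups stayed apart. ANGPTL4 rose 2.40-fold (log2 fold change 1.26, SE 0.257, edgeR adjusted p = 0.0037). ANGPTL4 is also a gene of fat cells. Of the fat cell markers given above, CFD was higher in the knockout tumours, and PLIN1 had 28 parental and 56 knockout counts. FABP4 had 6 and 0, LEP had 1 and 0, and ADIPOQ was at 0 throughout. Fat cells in these xenografts would be the host's, and the part of their reads in the ANGPTL4 rise was not tested. ERO1A (chr14:52639916-52695900), an oxidase for protein folding in the endoplasmic reticulum, was at 517, 671, 529 and 493 CPM in the parental and at 933, 1078, 902 and 540.2 CPM in the knockout tumours. Knockout 4 alone lay in the parental range, and ERO1A rose 1.56-fold (log2 fold change 0.64, SE 0.184, edgeR adjusted p = 0.0235). Its call was lost without parental 1, 3 or 4 (adjusted p = 0.0647, 0.0545 and 0.0566) and without knockout 1, 2 or 3 (0.0619, 0.0732 and 0.0580).

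VEGFA, the vessel growth factor, was at 240.5, 306, 262 and 173 CPM in the parental and at 485, 382, 321 and 221 CPM in the knockout tumours. The 3 knockout tumours other than knockout 4 were above every parental tumour, and VEGFA did not pass (log2 fold change 0.52, SE 0.223, edgeR adjusted p = 0.11) but did without knockout 4 (0.69, adjusted p = 0.0245). NDRG1, a stress-response gene, was at 556, 1023, 535 and 483 CPM in the parental and at 1050.0, 937, 742 and 415 CPM in the knockout tumours. Parental 2 stood far above the other parental tumours, knockout 4 was the lowest knockout tumour, and NDRG1 did not pass (log2 fold change 0.28, SE 0.289, edgeR adjusted p = 0.522). The mitophagy receptors BNIP3 and BNIP3L did not pass, with fitted changes of 0.02 (SE 0.138) and -0.01 (SE 0.177). ADM (adrenomedullin, a vessel-dilating peptide), ANKRD37, the collagen prolyl hydroxylases P4HA1 and P4HA2, and the histone demethylase KDM3A had fitted changes from -0.21 for KDM3A to 0.41 for ANKRD37, and none passed (edgeR adjusted p from 0.218 to 0.914). ANKRD37 shares 35.2% of its exonic bases with UFSP2 on the opposite strand, a gene at 24.0 CPM in the parental and 21.0 CPM in the knockout group.

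The spread of the hypoxia targets within each group followed the tumour. Parental 2 was the highest parental tumour for 11 of the 13 targets (84.6%; over all genes tested it was the highest of its group for 29.6%), with a median deviation of 0.41 on the log2 scale from its group mean; CA12 and BNIP3 were the exceptions. Knockout 4 was the lowest knockout tumour for 12 of 13 (92.3%; 32.7% over all genes), with a median deviation of -0.52; the exception was CA9, lowest in knockout 1. For the glycolysis members knockout 4 was likewise the lowest of its group in 19 of 26 (73.1%). CA9 was thus highest in parental 2 like most other targets, but low in all 4 knockout tumours. These targets share libraries, so the counts describe the tumours and are not independent of each other.

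**Figure D3:**
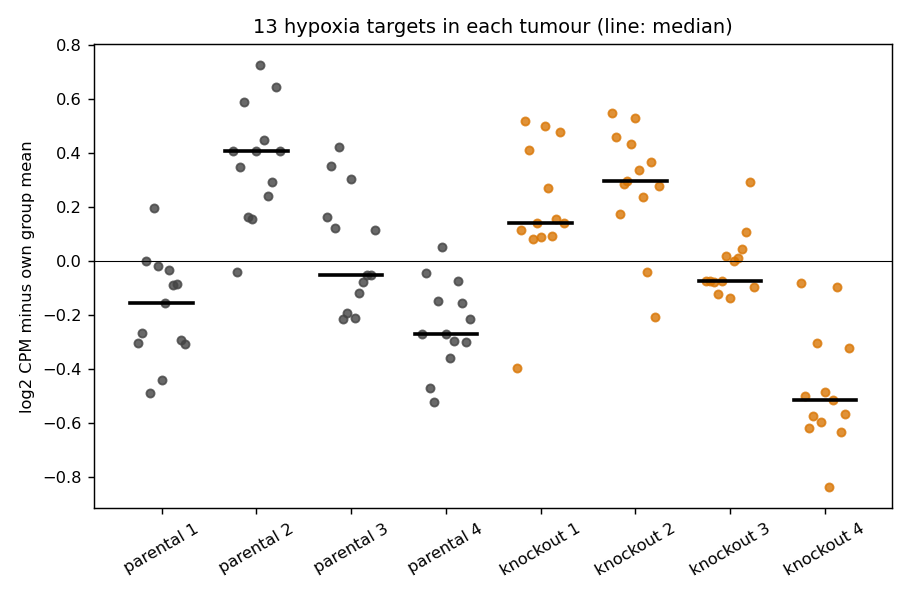
Deviation of each of the 13 hypoxia targets (points, log2 CPM minus the mean of the tumour's own group, y axis) in each of the 8 tumours (x axis). Parental 2 lies above its group for most targets, with a median of 0.41, and knockout 4 lies below its group, with a median of -0.52.

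Parental 2 and knockout 4 were also 2 of the 3 tumours with skeletal muscle markers, together with parental 4. With these 3 tumours left out, a choice made after seeing the data, 2 parental and 3 knockout tumours remained, and 12 members were higher and 8 lower in knockout tumours, against 7 and 8 with all 8 tumours. The members then newly called higher were SLC2A1 (log2 fold change 0.71, edgeR adjusted p = 0.0192), PFKP (0.47, 0.0168), EGLN3 (0.57, 0.0152), VEGFA (0.65, 0.0188) and NDRG1 (0.73, 0.00654). Over all genes 12% were then called higher and 14% lower, close to the shares with all tumours. The median log2 fold change of the HIF and hypoxia members was 0.26 in place of 0.02, and that of the glycolysis members 0.06 in place of -0.10. Parental 2 was the highest parental and knockout 4 the lowest knockout tumour for most hypoxia targets. Leaving them out moves the changes of those targets upward by construction. Parental 4, also left out, was the lowest parental tumour for 6 of the 13 targets. Without parental 2 alone the median of the HIF and hypoxia members was 0.14, without knockout 4 alone 0.16, and without parental 4 alone -0.007. The refit is therefore not separate support for a rise. CA9, HIF1A, HK1, PFKM and SLC2A12 passed as lower in this fit too. The part of muscle RNA in these differences was not tested.

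Pairs of related genes that do the same step were compared as ratios within each tumour, which do not depend on library size. Of 14 pairs, 6 had ratios that did not overlap between the groups. Each had an exact two-sided permutation p of 0.0286, the smallest that 4 against 4 tumours allow. After Benjamini-Hochberg adjustment over the 14 pairs it was 0.0667, and no pair passed 0.05. With that floor, no pair could pass unless most of the 14 separated. Each of the 6 holds at least 1 member called above, so their separation repeats those calls and is not separate support. The share of separate ratios among other gene pairs was not measured. EPAS1 over HIF1A was 0.978, 0.875, 0.767 and 0.948 in the parental and 1.997, 1.79, 1.87 and 1.60 in the knockout tumours. The ratio was thus 2.04-fold higher in knockout tumours, and per kilobase of exons it moved from 0.627 to 1.28, from more HIF1A to more EPAS1. SLC16A3 over SLC16A1 was 39.1, 34.8, 45.0 and 33.2 in the parental and 16.6, 16.03, 15.6 and 17.5 in the knockout tumours. MCT4 thus remained the more abundant transcript in both groups, at 22.3 and 9.70 to 1 per kilobase. ALDOC over ALDOA was 0.404 to 0.556 in the parental and 0.710 to 0.841 in the knockout tumours. Reads from exons that ALDOA shares with AC093512.2 may be missing, so this ratio does not give the relative levels of the aldolases. PFKM over PFKL was 0.118 to 0.179 in the parental and 0.0831 to 0.0888 in the knockout tumours. SLC2A3 over SLC2A1 was 0.00291 to 0.0139 in the parental and 0.0211 to 0.0293 in the knockout tumours, so SLC2A1 had the higher level in all 8. CA12 over CA9 was 2.55 to 4.06 in the parental and 6.29 to 11.96 in the knockout tumours. HK2 over HK1, EGLN3 over EGLN1 and the 6 other pairs overlapped (exact permutation p from 0.0857 to 0.914).

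**Figure D4:**
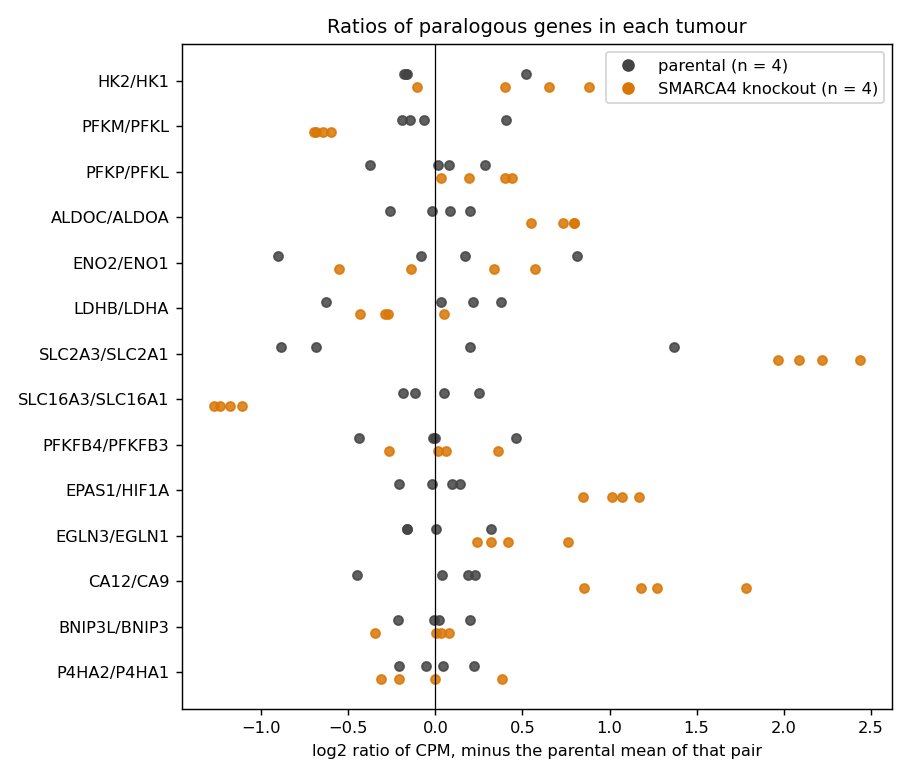
Log2 ratio of CPM of 14 pairs of related members (x axis, each pair centred on its parental mean) in the 4 parental and 4 knockout tumours (points are tumours). The 6 pairs whose groups do not overlap are SLC2A3/SLC2A1, PFKM/PFKL, ALDOC/ALDOA, SLC16A3/SLC16A1, EPAS1/HIF1A and CA12/CA9.

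Other genes of the same pathways, 99 in all, are given for context, and 84 of them could be tested. Of these 16 rose and 11 fell (32.1% called, against 27.0% of all genes). Among 37 tested genes of glucose handling 7 rose and 7 fell (37.8% called). LDHD, the mitochondrial D-lactate dehydrogenase, was at 1.57 ± 0.435 CPM in the parental and 6.29 ± 0.494 CPM in the knockout group (SD, n = 4 each; log2 fold change 1.99, edgeR adjusted p = 3.98e-05). The glycogen phosphorylase PYGL rose by 1.08 and the muscle-type enolase ENO3 by 0.63 on the log2 scale (edgeR adjusted p = 0.000103 and 0.003). ENO3 is itself a muscle gene; in the 5 tumours without muscle markers it was 0.43 higher in the knockout tumours (adjusted p = 0.0287). SLC2A9, a urate transporter of the GLUT family, fell by 2.08, PCK2, the mitochondrial PEP carboxykinase, by 1.00 and PDK4, a kinase that shuts off pyruvate oxidation, by 0.94 (edgeR adjusted p = 0.000397, 0.000213 and 0.00865).

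Among 12 tested genes of the HIF system 2 rose and none fell (16.7% called, below the 27.0% of all genes). CITED2, which competes with HIF for its coactivator, was at 59.0, 60.5, 58.9 and 50.3 CPM in the parental and 128, 171, 138 and 99.3 CPM in the knockout tumours. All knockout values were above all parental values (log2 fold change 1.23, SE 0.145, edgeR adjusted p = 0.000101). ARNT2, a partner of the alpha subunits, was at 11.7 ± 1.45 and 25.4 ± 4.85 CPM (SD, n = 4 each; log2 fold change 1.11, edgeR adjusted p = 0.000308). Of 35 other hypoxia targets tested, 7 rose and 4 fell (31.4% called, near the 27.0% of all genes). PPP1R3C, a glycogen-targeting subunit of protein phosphatase, was at 28.9, 45.1, 27.9 and 32.4 CPM in the parental and 199, 115, 134 and 89.1 CPM in the knockout tumours, with no overlap (log2 fold change 1.998, edgeR adjusted p = 9.84e-05). The growth factor carrier IGFBP3 rose by 1.16 and TMEM45A by 1.05 on the log2 scale (edgeR adjusted p = 0.0025 and 0.00553). Targets that fell included DDIT4, an inhibitor of mTORC1, by 0.96 and the adenylate kinase AK4 by 0.60 (edgeR adjusted p = 0.0154 and 0.00662).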

How the data were processed

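RNA sequencing of 8 vehicle-treated H2122 xenograft tumours (4 parental, 4 SMARCA4 knockout) was used. The deposited values were raw read counts per gene symbol, made by the authors with TopHat2 2.1.1 and HTSeq 0.11.0 on build hg38, per the submitters' processing notes. The annotation, the strand setting and any separation of host reads were not given in the sources used here, so host reads that resemble human transcripts may be counted. The 5 summary lines of each file (14.8% to 20.9% of reads) were left out.

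Genes were kept by filterByExpr (minimum count 10, total 15; 16219 of 59050) and tested with edgeR 4.0.16 (R 4.3.3), TMM scaling and the quasi-likelihood F-test, with Benjamini-Hochberg adjustment over all genes tested. The SE was taken from the F statistic. The test was checked on simulated data whose changes were larger than most of those fitted for the members. That check does not cover smaller changes, and a member that did not pass may still differ. Pair ratios used exact permutation tests (SciPy 1.17.1). Alternatives were RLE and upper-quartile scaling, DESeq2 1.42.0, limma-voom (limma 3.58.1), 2 filters, a replicate block, leaving out each tumour and, added after seeing the data, leaving out 3 tumours with muscle markers above 5 CPM. Positions are from GENCODE 29 (GRCh38), matched by symbol.

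The members, lists and the named genes (all members that passed, a fixed set of others, and up to 3 rises and 3 falls of each further list with a mean log2 CPM of at least 1) were chosen with earlier results of these data known. A single result under this naming rule is not reported here.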

Additional observations from a re-analysis of the deposited data

Results flagged for a closer look

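In each group of 4 tumours, a member's highest or lowest value was set against the other 3 by Dixon's test at the 95% level. Of 88 sets of 4 values, 5 held a value that stood apart, close to the 5% that chance gives. In 4 of them it was parental 2 that was high. SLC2A3 was at 14.2 CPM there against 2.02 to 3.53 CPM in the other parental tumours, and HK2 at 368 CPM against 197 to 218 CPM. NDRG1 was at 1023 CPM in parental 2 against 483 to 556 CPM, and P4HA2 at 90.0 CPM against 71.8 to 72.5 CPM. In the knockout group EPAS1 was at 423 CPM in knockout 4 against 592 to 623 CPM in the other 3.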

How the results depend on the processing

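Of the 15 members that passed, 10 kept their call in all 16 alternatives and 0 changed direction. Leaving out 1 tumour at a time gave 4 to 8 members higher (4 without parental 1 and without knockout 2) and 6 to 8 lower, where 9.94% to 14% of all genes were higher and 11.2% to 14.6% lower; DESeq2 gave 11 lower, with 15.9% of all genes lower against 14.1%. With the 3 tumours with muscle markers left out, 12 members and 26 of the other pathway genes were higher, in place of 7 and 16, and the median of the glycolysis members was 0.063. Parental 2 and knockout 4, which were left out here, were the extremes of their groups for most hypoxia targets. An upward shift of those targets follows from leaving them out. Parental 4, left out too, was the lowest parental tumour for 6 of the 13 targets. Of the 26 glycolysis members, parental 2 was the highest parental tumour for 11 and knockout 4 the lowest knockout tumour for 19. The part of muscle RNA was not tested.

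Among members that did not pass, signs reversed as follows. In that 5-tumour fit the log2 fold changes were 0.229 for HK2, -0.055 for PFKL, 0.067 for PGK1, 0.097 for PGAM1, 0.137 for ENO2, 0.147 for PFKFB4, 0.058 for PDK1, 0.258 for BNIP3L, 0.205 for P4HA1 and 0.033 for P4HA2. With 1 tumour left out they ran from -0.346 to 0.053 for HK2, -0.066 to 0.071 for PFKL, -0.286 to 0.197 for ENO2, -0.067 to 0.305 for LDHB, -0.162 to 0.011 for PDK1, -0.007 to 0.367 for ADM, -0.087 to 0.113 for BNIP3, -0.161 to 0.160 for BNIP3L, -0.133 to 0.137 for P4HA1 and -0.116 to 0.006 for P4HA2. With no filter PFKL was at -0.001 and BNIP3 at -0.002. BNIP3L was at 0.027 under upper-quartile scaling and 0.001 with at least 1 CPM in 4 libraries.

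The labels do not say whether equal replicate numbers pair the tumours. Deviations from the group mean in tumours of equal number had correlations from -0.223 to 0.0918, which cannot settle the question. With the number as a block 7 members were higher and 8 lower, EPAS1 was lost (adjusted p = 0.0960), VEGFA passed (0.0298), and 3871 of all genes passed in place of 4385. Upper-quartile scaling moved the median of all genes to 0.04 and gave 2383 genes higher and 2025 lower, against 2102 and 2283. For the 6 separate pair ratios, an exact sign-flip permutation test over equal numbers gave p = 0.125, the smallest it allows.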
